A study of Mus musculus with 10 samples.

Results

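Mature B cells that have left the bone marrow and not yet met antigen express a set of receptors and gene regulators linked to the resting state. The 6 genes described here were taken as members of that set: the receptor genes Fcmr, Fcer2a and Il4ra and the regulator genes Satb1, Bach2 and Ets1. In these libraries Fcmr and Fcer2a did not have their highest level in resting cells, as described below. They were chosen by name, as rows of the table whose gene symbol equals one of these, and all 6 of 6 were found among 6610 gene symbols and passed the filter on low values, as did 4427 genes in all. The 6 symbols cover 21 listed transcripts, which were summed per gene.

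The libraries came from splenic B lymphocytes of the inbred mouse strain C57BL/6, in 5 groups of 2 libraries. Resting cells without activation formed the group naive. In Phase I, called mitogen-dependent in the labels, activation was by a pulse of anti-IgM, which crosslinks the antigen receptor, plus anti-CD40, which engages a co-stimulatory receptor. At 48 h undivided cells (div0) and divided cells (div12) were taken. In Phase II, called mitogen-independent, div12 cells were kept for a further 48 h with 0.12 µg/ml of the antibody against CD40 and sorted by whether they had remained undivided in that time (div12_48_u) or had gone on to divide (div12_48_d). The cells of both Phase II groups had thus divided in Phase I, and they still received the CD40 antibody. Phase I replicates were independent pools of 4 to 5 mice, and for Phase II no source used here says whether replicates were separate pools, so p-values measure only the spread between these libraries.

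The receptors read signals at the surface of a resting B cell. Fcmr encodes the Fc receptor for IgM, Fcer2a encodes CD23, the low-affinity IgE receptor that is high on follicular B cells, and Il4ra encodes the ligand-binding chain of the IL-4 receptor, which signals through JAK kinases and STAT6. The regulators act in the nucleus: SATB1 organises chromatin and is also abundant in T lineage cells, BACH2 represses genes together with small MAF proteins, Prdm1 being its best known target, and ETS1 is a transcription factor that restrains plasma cell formation. Activated B cells are known to lower many genes of this kind as they grow and divide.

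Levels are TPM, transcript abundance per length scaled to a total of 1000000 in each library, and the sequencing depth is unknown. Fold changes are differences of log2(TPM + 1), given in log2 with a standard error. Gene coordinates are those of the GENCODE annotation on GRCm38, the build mm10. The words rise and fall are kept for genes with an adjusted p under 0.05 from limma (two-sided, Benjamini-Hochberg over all 4427 genes tested). Because TPM is relative, the median of all genes itself moved, from -0.35 in div12 against naive to 0.16 in div12_48_u against div12, and rescaling the libraries by median ratios brought these medians to 0.01 and -0.01. Calls that scaling changes are named below. RNA of bulk samples was measured, so fewer cells expressing a gene and less RNA per cell cannot be told apart. Phase, culture time, cell input for RNA (1000000 cells in Phase I, 500000 in Phase II) and any batch cannot be told apart either.

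B cell genes were abundant throughout: group means ran from 6459 to 10800 TPM for Cd79a, a signalling chain of the antigen receptor. Markers of other cells were also read. The 11 listed myeloid markers summed to 727 and 2252 TPM in naive libraries against 259 to 799.8 in the other 8. Of the 11, 9 fell against naive in every other group, where 27.2% to 47.5% of all genes fell, and 0 to 2 rose. The 6 erythroid and platelet markers summed to 2690.0 and 3210.0 TPM in naive libraries against 12.4 to 46.2 in the other 8. The macrophage gene C1qa was at 65.9 and 249 TPM in naive libraries and listed at 0 in the other 8. The 3 NK markers summed to 71.9 and 112 TPM against 3.37 to 6.44. The T cell receptor chain gene Cd3e stood at 10.3 and 10.2 TPM in naive libraries and at 0.345 or less in the other 8. The sum of 10 T cell markers was 197 to 234 TPM in Phase I and naive libraries and 401 to 501 in Phase II, where Lck alone held 346 to 445. The part of other cells in the naive values was not tested.

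The promoters of the 3 receptor genes are shown because these genes moved apart in Phase II, as described below, and because IL-4 signalling through STAT6 is known to act on Fcer2a. Each window is the 250 bases before a RefSeq start site (GRCm38.p6), printed 5′ to 3′ on the strand of the gene. The Fcmr window is chr1:130865527-130865776 on the plus strand, the upstream Fcer2a window chr8:3694175-3694424 and an internal one chr8:3690862-3691111, both on the minus strand, and the Il4ra window chr7:125552021-125552270 on the plus strand. Capitals mark matches on either strand to a STAT6 site (TTC, any 4 bases, GAA) or to a KLF or Sp box (CCACCC or its complement GGGTGG).
Fcmr: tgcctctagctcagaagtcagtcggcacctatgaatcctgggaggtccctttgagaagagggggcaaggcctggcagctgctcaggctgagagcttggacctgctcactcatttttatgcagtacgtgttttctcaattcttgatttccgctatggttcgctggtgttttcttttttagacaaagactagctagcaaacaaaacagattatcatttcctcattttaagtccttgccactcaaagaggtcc
Fcer2a upstream start: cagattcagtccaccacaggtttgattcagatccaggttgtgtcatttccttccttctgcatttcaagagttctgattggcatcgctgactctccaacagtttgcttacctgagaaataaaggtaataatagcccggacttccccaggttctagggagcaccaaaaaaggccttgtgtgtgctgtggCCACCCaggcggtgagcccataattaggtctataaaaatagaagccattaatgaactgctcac
Fcer2a internal start: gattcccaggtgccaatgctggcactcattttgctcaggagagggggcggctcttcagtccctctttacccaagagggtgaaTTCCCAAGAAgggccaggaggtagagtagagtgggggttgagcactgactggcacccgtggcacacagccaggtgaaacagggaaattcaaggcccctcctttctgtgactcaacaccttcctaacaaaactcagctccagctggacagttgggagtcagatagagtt
Il4ra: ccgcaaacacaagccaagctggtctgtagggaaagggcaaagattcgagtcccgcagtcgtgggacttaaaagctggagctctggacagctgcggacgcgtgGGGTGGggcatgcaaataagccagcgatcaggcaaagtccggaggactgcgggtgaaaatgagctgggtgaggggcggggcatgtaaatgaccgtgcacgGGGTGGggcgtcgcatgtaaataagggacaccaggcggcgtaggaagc

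The internal Fcer2a window shown held a match to the STAT6 site, TTCCCAAGAA, beginning 168 bases before the start. A second internal Fcer2a window, chr8:3690391-3690640, is not printed; it held no STAT6 match and had the KLF or Sp box at 129 bases before its start. Of 32851 promoter windows of the same length, 5.85% held such a match. Il4ra held the KLF or Sp box at 148 and 48 bases before its RefSeq start and the upstream Fcer2a window held it at 63, a motif found in 28.1% of windows. The RefSeq starts of Il4ra (125552271) and Fcmr (130865777) lie downstream of their GENCODE starts (125552120 and 130865669). Their windows thus reach into the GENCODE genes, and both Il4ra boxes lie past the GENCODE start. None of the windows listed for Fcmr, Fcer2a, Il4ra, Satb1 or Bach2 matched the NF-kB site GGGACTTTC (0.289% of windows), the ETS core CCGGAAGT (2.88%), the FOXO site TGTTTAC (3.17%) or the small MAF and BACH site TGCTGAGTC (0.344%). E-boxes (CANNTG, 66.2% of windows) were present in the Fcmr, the printed internal Fcer2a and the Il4ra windows and are not marked. A match describes letters in a window and no binding was measured.

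All 6 genes had lower levels in divided than in undivided cells in both phases, with no overlap between libraries, as did 40.3% of all genes in Phase I and 40.1% in Phase II. The test called 4 of the 6 lower in Phase I, where 5.08% of all genes were called lower, and all 6 in Phase II, where 13.4% were. Cells of Phase II that had not divided again stood apart: against div12, from which they came, 5 genes rose and Fcer2a fell, where 27.7% of all genes rose and 13.6% fell. Naive cells had the highest mean level of Il4ra, Satb1, Bach2 and Ets1, but Fcmr was highest in div12_48_u and Fcer2a in div0. Fcmr in div12_48_u exceeded its level in naive cells, and the Satb1 libraries there overlapped naive.

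**Figure D1:**
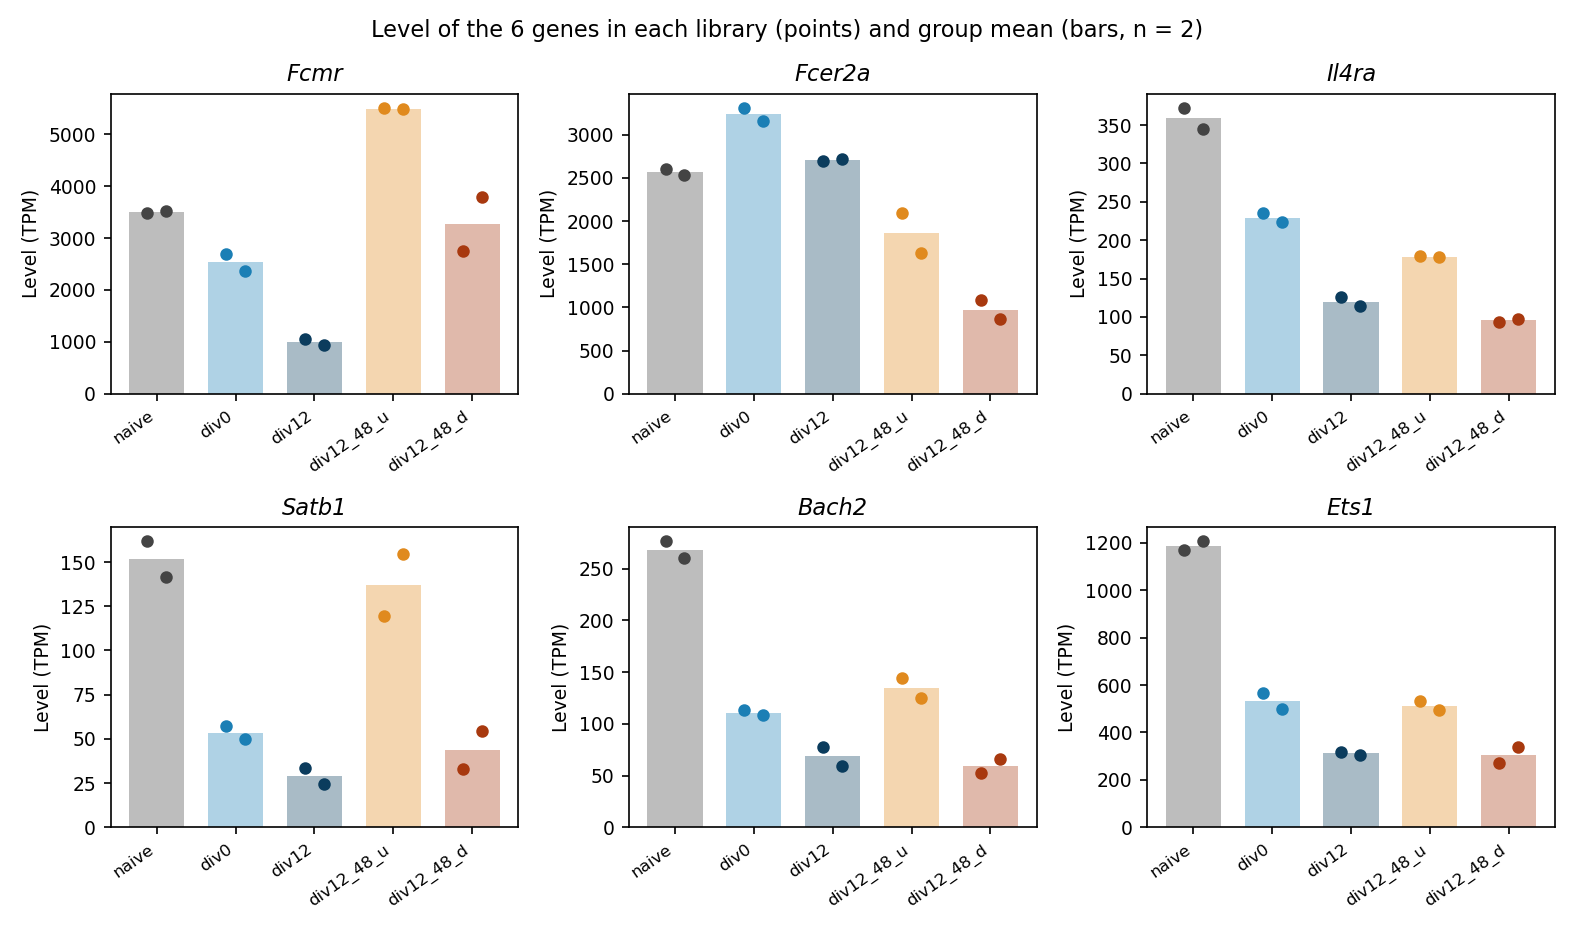
Level of each gene in TPM (vertical axes, each from 0) in the 5 groups; points are the 2 libraries of a group and bars the group mean. Fcmr reaches 5481 and 5509.7 TPM in div12_48_u, above naive, whereas Fcer2a is highest in div0.

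Fcmr (chromosome 1, 130865669 to 130880791, plus strand, 1 listed transcript) was among the 129 most abundant genes in every group mean. Its level was 3474 and 3517 TPM in naive cells, 2701 and 2371 in div0, and 1049 and 944 in div12. In Phase II it was 5509.7 and 5481 TPM in div12_48_u and 2749 and 3796 in div12_48_d. The Phase I libraries thus stepped down without overlap, and both div12_48_u libraries lay above every other library, while div12_48_d overlapped naive. From div12 to div12_48_u Fcmr rose 5.52-fold, by 2.46 ± 0.14 in log2 (adjusted p = 6.75e-05) and rank 14 of 4427 from the top. Against naive, div12_48_u was higher by 0.65 ± 0.14 (adjusted p = 0.00688).

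Fcmr also rose from div12 to div12_48_d, by 1.70 ± 0.14 (adjusted p = 4.46e-04), the one gene of the 6 to do so in the fit of all libraries. The difference of div12_48_d from naive was -0.11 ± 0.14 (95% interval -0.44 to 0.21, adjusted p = 0.507), and it turned to 0.14 with median-ratio scaling and to 0.12 without div12_48_d replicate 1. Without div12_48_d replicate 2 it was -0.35 and passed the test (adjusted p = 0.0335). In div12 against naive Fcmr fell by 1.81 (-1.81 ± 0.14, adjusted p = 1.93e-05). Activation without division gave a smaller change than in div12, with a fall of 0.47 (-0.47 ± 0.14) in div0 against naive (adjusted p = 0.0233). That call was lost with median-ratio scaling (-0.20, adjusted p = 0.247), without either naive library (adjusted p = 0.0604 and 0.0676) and without div0 replicate 2 (adjusted p = 0.139).

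Fcer2a (chromosome 8, 3681737 to 3694175, minus strand, 7 listed transcripts) was the only one of the 6 that stood above naive in both Phase I groups. Its level was 2598 and 2537 TPM in naive cells, 3311 and 3158 in div0, and 2700.0 and 2722 in div12. In Phase II it was 2089 and 1628 TPM in div12_48_u and 1081 and 865 in div12_48_d. No 2 neighbouring groups in this order overlapped, and the Phase II libraries were the 4 lowest. From div12, Fcer2a changed by -0.56 ± 0.13 in div12_48_u (adjusted p = 0.0113) and by -1.49 ± 0.13 in div12_48_d (adjusted p = 4.82e-04), where it ranked 24 of 4427 from the bottom. The first of these calls was lost without div12 replicate 2 (adjusted p = 0.0536) and without div12_48_u replicate 2 (-0.38, adjusted p = 0.0679).

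The increase of Fcer2a in div0 over naive was 0.33 ± 0.13 and missed the threshold (adjusted p = 0.0631). It passed with median-ratio scaling (0.60, adjusted p = 0.00746), with naive and div0 alone in the fit (adjusted p = 0.0185), with the replicate number as a block (adjusted p = 0.0375) and without any 1 of the 4 Phase II libraries (adjusted p = 0.0354 to 0.0452). In div12 against naive the difference was 0.08 ± 0.13 (95% interval -0.23 to 0.38, adjusted p = 0.622), which was 0.46 with median-ratio scaling (adjusted p = 0.0186) and -0.16 with quantile normalization. Fcer2a was lower in div12_48_u than in naive cells (-0.48 ± 0.13, adjusted p = 0.0204), a call lost with median-ratio scaling (-0.31, adjusted p = 0.104), with the 2 groups alone (adjusted p = 0.0611), with the most abundant transcript only (adjusted p = 0.0562), and when naive replicate 1 (adjusted p = 0.0683) or div12_48_u replicate 2 (-0.30, adjusted p = 0.134) was left out.

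The upstream start and the summed internal starts of Fcer2a kept a near constant balance while the total moved. The transcript with the farthest upstream start (position 3694175) made up 53.1% ± 0.0275 of the gene's TPM in naive cells, 54.1% ± 3.55 in div0 and 52.1% ± 2.14 in div12. In div12_48_u its share was 53.5% ± 1.41 and in div12_48_d 49.9% ± 4.46 (SD, n = 2). The remaining 6 transcripts start between 3690390 and 3691163. The transcript starting at 3690861, where the window with the STAT6 match ends, made up 13.8% of the gene's mean TPM over the 10 libraries. The largest internal transcript, at 24.2%, starts at 3690390, and its window held no STAT6 match. Its share was 26.6% ± 0.80 in naive cells, 20.7% ± 0.49 in div12_48_u and 23.6% to 25.9% in the other groups. Reads of 50 bases divide transcripts of 1 gene only by the authors' estimation, and no test was made on these shares.

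**Figure D2:**
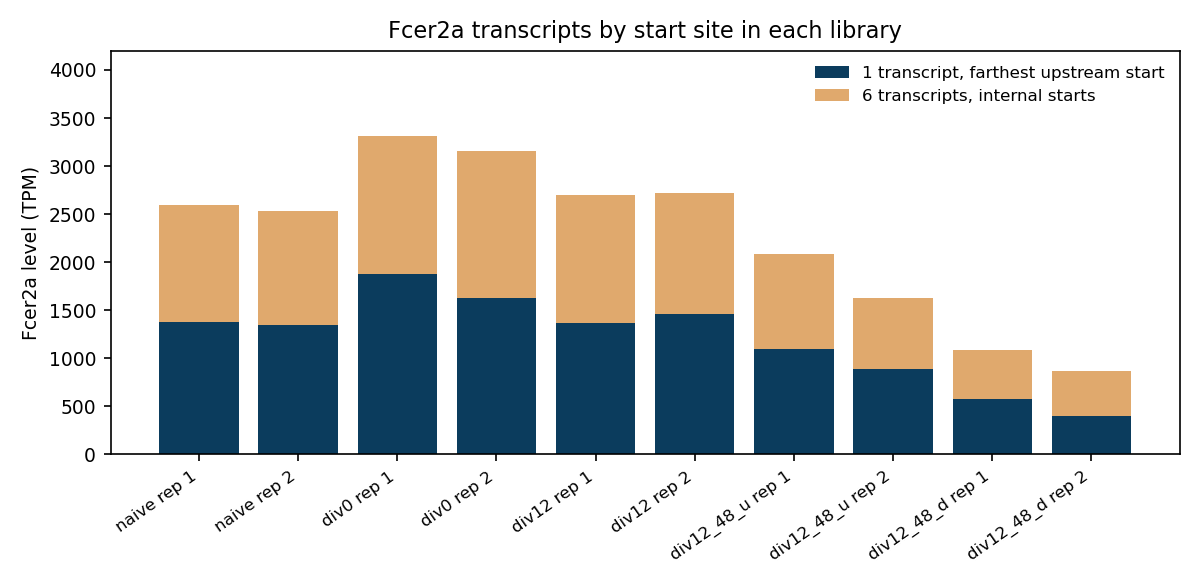
Fcer2a level in TPM (vertical axis) in each of the 10 libraries, stacked by start site: the transcript with the farthest upstream start (dark) and the sum of 6 transcripts with internal starts (light). The dark share stays between 46.7% and 56.7% in the 10 libraries while the total falls in Phase II.

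The balance of the 2 Fc receptor genes turned over. The ratio of Fcmr to Fcer2a TPM was 1.34 and 1.39 in naive cells, 0.816 and 0.751 in div0, and 0.388 and 0.347 in div12. It was 2.64 and 3.37 in div12_48_u and 2.54 and 4.39 in div12_48_d. Every Phase I library was below the naive pair and every Phase II library above it.

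Il4ra (chromosome 7, 125552120 to 125579474, plus strand, 2 listed transcripts) fell with activation and again with division. Its level was 373 and 345 TPM in naive cells, 235 and 223 in div0 and 126 and 114 in div12, then 179 and 178 in div12_48_u and 93.3 and 97.7 in div12_48_d. No groups overlapped, and the order ran from naive through div0, div12_48_u and div12 to div12_48_d. The fall from naive was -0.64 ± 0.08 in div0 (adjusted p = 4.43e-04) and -1.58 ± 0.08 in div12 (adjusted p = 4.19e-06). Il4ra rose from div12 to div12_48_u by 0.57 ± 0.08 (adjusted p = 0.00127), which left it at 49.7% of the naive mean. In div12_48_d it was lower than in div12 (-0.32 ± 0.08, adjusted p = 0.0345), a call lost in the fit of the 2 groups alone (adjusted p = 0.0894), without the mean-variance trend (adjusted p = 0.0645), with the most abundant transcript only (-0.26, adjusted p = 0.0977) and without any 1 of the 8 libraries outside naive (adjusted p = 0.0526 to 0.134).

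Satb1 (chromosome 17, 51736187 to 51833290, minus strand, 8 listed transcripts) had the largest change of the 3 regulators from div12 to div12_48_u and in the Phase II division comparison, in the fit of all libraries. Its level was 162 and 141 TPM in naive cells, 57.0 and 49.7 in div0, and 33.6 and 24.7 in div12. In Phase II it was 119.5 and 155 TPM in div12_48_u and 32.8 and 54.5 in div12_48_d. Naive and div12_48_u overlapped at the top, and all other libraries were at 57.0 TPM or less. The fall in div12 against naive was -2.35 ± 0.25 (adjusted p = 7.89e-05), and the rise from div12 to div12_48_u was 2.20 ± 0.25, a 4.60-fold change (adjusted p = 4.12e-04) and rank 24 of 4427 from the top.

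In div12_48_u against naive Satb1 differed by -0.15 ± 0.25 (95% interval -0.72 to 0.41, adjusted p = 0.648), an interval too wide to call the levels alike. That sign turned with median-ratio scaling (0.02), with the most abundant transcript only (0.07) and without div12_48_u replicate 1 (0.03). Of the T cell markers, Cd3e was at 0 and 0.116 TPM in the 2 div12_48_u libraries, where Satb1 was at 119.5 and 155. Lck was at 346 and 401 TPM there and rose from div12 (1.37 ± 0.09, adjusted p = 7.29e-05). Of the 10 tested T cell markers, Lck was the only 1 to rise in that comparison, and 1 fell. Their median change was 0.07, against 0.16 for all genes, of which 27.7% rose and 13.6% fell. The part of T cells in the Satb1 values was not tested. From div12 to div12_48_d the change of 0.54 ± 0.25 missed the threshold (adjusted p = 0.181), and it passed without div12_48_d replicate 1 (0.90, adjusted p = 0.0481).

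Bach2 (chromosome 4, 32238804 to 32586108, plus strand, 1 listed transcript) and Ets1 (chromosome 9, 32636221 to 32757820, plus strand, 2 listed transcripts) followed one another closely. Bach2 was at 277 and 260.3 TPM in naive cells, 113 and 108 in div0 and 78.0 and 59.0 in div12, with 144.5 and 125 for div12_48_u and 52.8 and 65.6 for div12_48_d. Ets1 was at 1170.2 and 1207 TPM in naive cells, 565 and 497 in div0 and 319.5 and 304 in div12, with 532 and 495 for div12_48_u and 272 and 339.9 for div12_48_d. For both genes div12 and div12_48_d overlapped at the bottom, and naive stood alone at the top. For Ets1 div0 and div12_48_u overlapped too.

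Activated cells that had not divided held less of both, with a change of -1.27 ± 0.15 for Bach2 (adjusted p = 3.11e-04) and -1.16 ± 0.11 for Ets1 (adjusted p = 1.13e-04) in div0 against naive. From div12 to div12_48_u Bach2 rose by 0.98 ± 0.15 (adjusted p = 0.00168) and Ets1 by 0.72 ± 0.11 (adjusted p = 0.00179). Both stayed below naive there, at 50.3% of the naive mean for Bach2 and 43.2% for Ets1. From div12 to div12_48_d neither passed the test, with -0.20 ± 0.15 for Bach2 (95% interval -0.55 to 0.15, adjusted p = 0.426) and -0.04 ± 0.11 for Ets1 (95% interval -0.30 to 0.22, adjusted p = 0.881), and the Ets1 value was 0.12 without div12_48_d replicate 1.

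Prdm1, the plasma cell regulator repressed by BACH2 and singled out after its values were seen, was lowest in div12. Its level was 19.4 and 7.86 TPM in naive cells, 4.12 and 4.58 in div0 and 1.95 and 1.70 in div12, then 8.38 and 8.26 in div12_48_u and 8.69 and 15.9 in div12_48_d. Prdm1 rose from div12 to div12_48_u (1.72 ± 0.38, adjusted p = 0.00768), in the comparison in which Bach2 rose too, and from div12 to div12_48_d (2.18 ± 0.38, adjusted p = 0.00722), where Bach2 did not pass the test. In div12_48_d against div12_48_u Bach2 fell (-1.18 ± 0.15, adjusted p = 0.00198). The ratio of Bach2 to Prdm1 TPM was 17.25 and 15.19 in div12_48_u and 6.07 and 4.12 in div12_48_d. It was 40.0 and 34.78 in div12, 27.45 and 23.7 in div0 and 14.23 and 33.11 in naive cells. The part of BACH2 in the Prdm1 values was not tested.

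The 6 genes were next read comparison by comparison against all tested genes. In div0 against naive 5 of 6 fell, where 39.6% of all genes fell. In div12 against naive the same number fell, against 47.5% of all genes, and in div12_48_d against naive 5 fell, against 40.6%. These shares depend on scaling: with median-ratio scaling 1070, 1349 and 1248 genes fell and 1197, 1485 and 1443 rose in the 3 comparisons, where the unscaled values gave 1751, 2104 and 1798 that fell and 680, 858 and 964 that rose. In div12_48_u against naive 4 fell and 1 rose, against 27.2% and 15.2% of all genes, a split of 1205 and 675 that became 882 and 1124 with median-ratio scaling.

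In the division comparison of Phase I, div12 against div0, 4 of 6 genes fell, where 5.08% of all genes fell (225, with 163 that rose, or 184 and 350 with median-ratio scaling). Fcmr changed by -1.35 ± 0.14 (adjusted p = 0.0109, rank 23 from the bottom), Il4ra by -0.93 ± 0.08 (adjusted p = 0.0109), Ets1 by -0.76 ± 0.11 (adjusted p = 0.0151) and Bach2 by -0.70 ± 0.15 (adjusted p = 0.0351). Satb1 at -0.86 ± 0.25 (adjusted p = 0.0629) and Fcer2a at -0.25 ± 0.13 (95% interval -0.56 to 0.05, adjusted p = 0.257) missed the threshold. All 4 calls were lost without div0 replicate 1, div0 replicate 2 or div12 replicate 2, fits in which no gene at all was called. Bach2 was also lost without a filter on low values (adjusted p = 0.0603), without the mean-variance trend (adjusted p = 0.0586) and without div12_48_u replicate 2 (adjusted p = 0.05), while Satb1 was gained with the 2 groups alone (adjusted p = 0.0292) or without either div12_48_d library (adjusted p = 0.0386 and 0.0387).

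In the division comparison of Phase II, div12_48_d against div12_48_u, all 6 genes fell, where 13.4% of all genes fell (594, with 540 that rose, or 482 and 674 with median-ratio scaling). Satb1 changed most, by -1.66 ± 0.25 (adjusted p = 0.00333), the sixth lowest value of 4427, followed by Bach2 at -1.18 ± 0.15 (adjusted p = 0.00198). Fcer2a changed by -0.93 ± 0.13 (adjusted p = 0.00286), Il4ra by -0.89 ± 0.08 (adjusted p = 6.24e-04), Fcmr by -0.77 ± 0.14 (adjusted p = 0.00707) and Ets1 by -0.75 ± 0.11 (adjusted p = 0.00341). All 6 calls held in every alternative tried, including each left-out library.

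**Figure D3:**
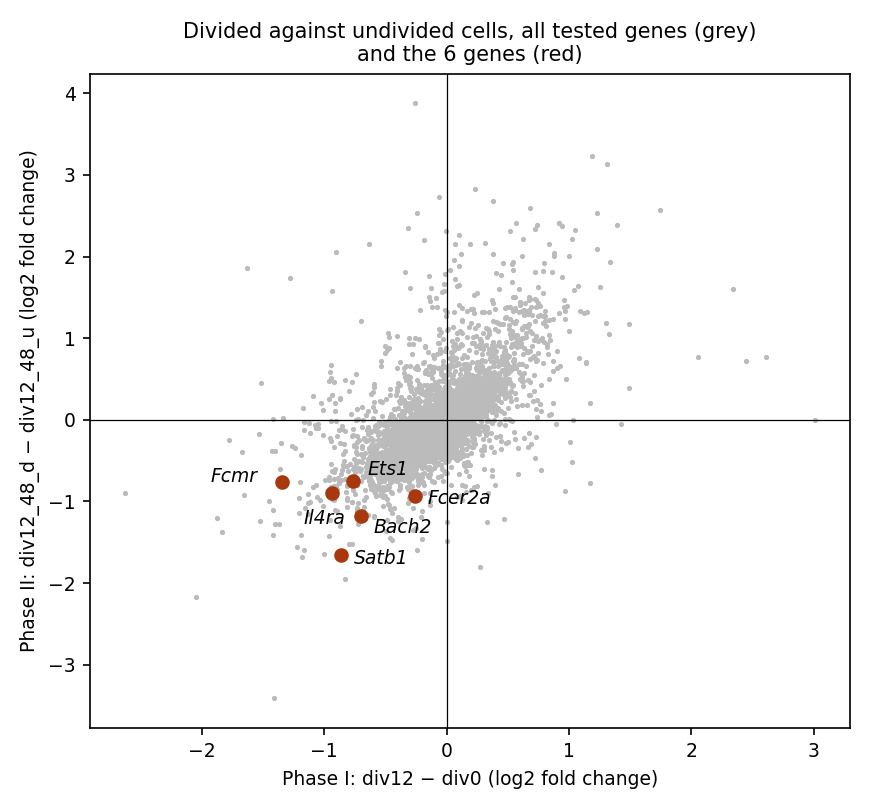
Log2 fold change of divided against undivided cells in Phase I (horizontal axis) and Phase II (vertical axis) for 4427 genes (grey) and the 6 genes (red). The 6 points lie below 0 on both axes, from -1.35 to -0.25 in Phase I and from -1.66 to -0.75 in Phase II.

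The 2 division comparisons share no library, although the Phase II cells were grown from div12. Over 4427 genes their log2 changes correlated with r = 0.61 as a description across genes, which are not independent replicates. Of the genes that fell, 171 fell in both, 76.0% of the 225 of Phase I and 28.8% of the 594 of Phase II, and 4 of the 6 genes were among them. Whether the effect of division differed between phases was tested as the difference of the 2 contrasts, and limma called 0 of 4427 genes, with 438 at an unadjusted p under 0.05. The count was 22 or 8 with median-ratio or quantile scaling, 35 without the naive group in the fit and 15 with a pseudocount of 5. None of the 6 genes was called in these fits. The largest differences among the 6 were -0.80 ± 0.35 for Satb1 (adjusted p = 0.501) and -0.68 ± 0.19 for Fcer2a (adjusted p = 0.233).

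From div12 to div12_48_u 5 genes rose and 1 fell, where 27.7% of all genes rose and 13.6% fell (1225 and 603, or 788 and 978 with median-ratio scaling). The directions of the 6 were kept under both scalings. From div12 to div12_48_d 1 rose and 2 fell, where 11.9% of all genes rose and 4.09% fell (525 and 181, or 438 and 447 with median-ratio scaling). The proliferation gene Mki67, taken after its values were seen, fell from div12 to div12_48_u (-1.68 ± 0.21, adjusted p = 6.51e-04) and was higher in div12_48_d than in div12_48_u by 1.34 ± 0.21 (adjusted p = 0.00387).

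**Figure D4:**
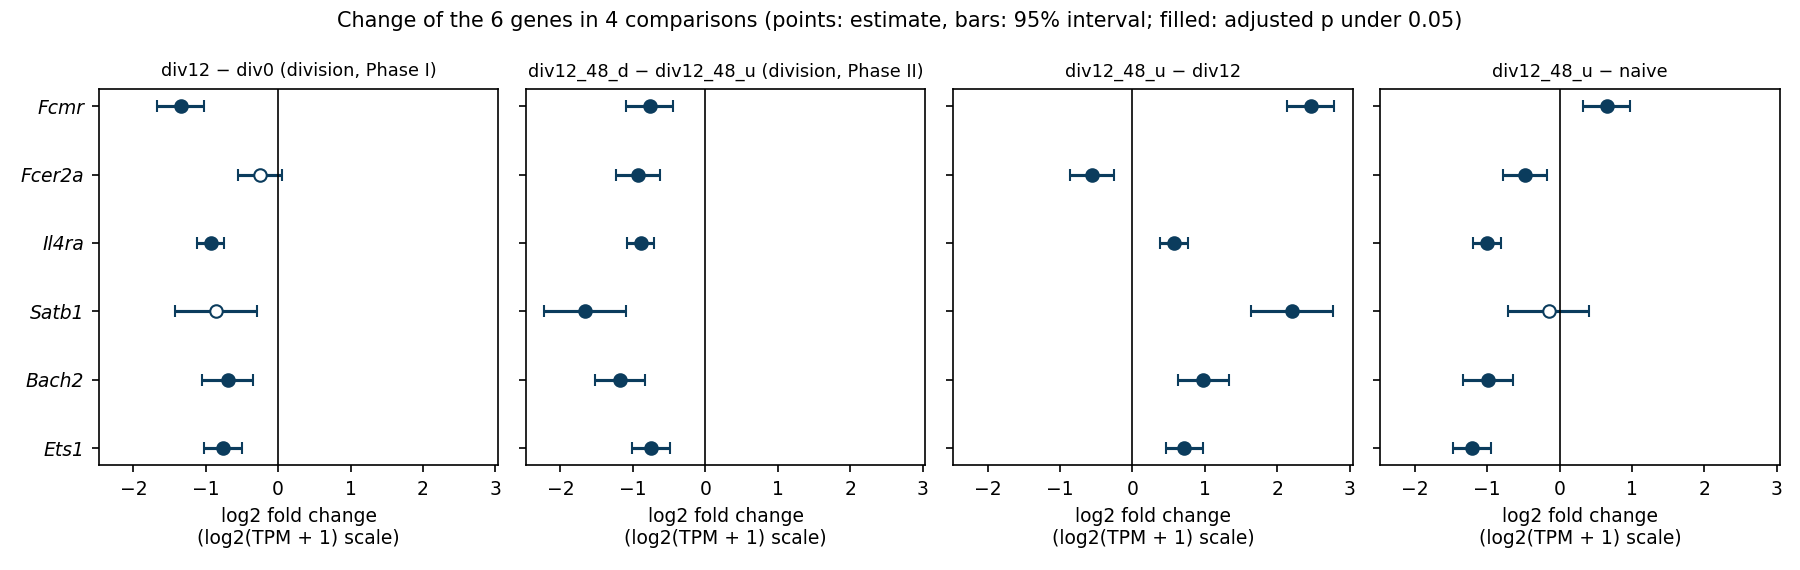
Log2 fold change (horizontal axis) of the 6 genes in 4 comparisons; bars are 95% intervals and filled points passed the test. All points of the Phase II division panel are filled and below 0, and div12_48_u against div12 runs from -0.56 for Fcer2a to 2.46 for Fcmr.

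The undivided cells of the 2 phases, both taken without division in their own phase, held different levels of the receptors. In div12_48_u against div0, 2 of the 6 genes rose, where 10.2% of all genes rose, and 2 fell, where 5.20% fell (450 and 230, or 339 and 387 with median-ratio scaling). Fcmr was higher by 1.12 ± 0.14 (adjusted p = 0.00305) and Satb1 by 1.34 ± 0.25 (adjusted p = 0.0107), while Fcer2a changed by -0.81 ± 0.13 (adjusted p = 0.00743) and Il4ra by -0.36 ± 0.08 (adjusted p = 0.0234). Bach2 at 0.28 ± 0.15 (95% interval -0.07 to 0.63) and Ets1 at -0.05 ± 0.11 (95% interval -0.31 to 0.21) did not pass, and Ets1 was at 0.0465 without div0 replicate 1 and at 0.0056 without div12_48_u replicate 2. Calls were fewer with a library left out. Il4ra was lost without any 1 of the 4 libraries compared (adjusted p = 0.0979 to 0.154), Fcer2a without either div0 library (adjusted p = 0.0512 and 0.0643), and Satb1 without div0 replicate 2 (adjusted p = 0.0978) or div12_48_u replicate 2 (adjusted p = 0.0751). In div12_48_d against div0 4 of the 6 fell, where 6.96% of all genes did. The changes were -1.74 ± 0.13 for Fcer2a (adjusted p = 1.56e-04), -1.25 ± 0.08 for Il4ra (adjusted p = 1.17e-04), -0.90 ± 0.15 for Bach2 (adjusted p = 0.00512) and -0.80 ± 0.11 for Ets1 (adjusted p = 0.00245). Fcmr, at 0.35 ± 0.14 (adjusted p = 0.13), passed without div12_48_d replicate 1 (0.58, adjusted p = 0.0212).

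Partners of these genes were read in lists, by counts. In div12 against naive, where 47.5% of all genes fell, 9 of 13 other B cell transcription factors, 6 of 9 IL-4 receptor partners and 8 of 9 naive follicular genes fell, or 8, 5 and 6 with median-ratio scaling. In the same comparison 7 of 9 antigen receptor and coreceptor genes fell, or 4 with that scaling, without naive replicate 2 or without div12 replicate 1.

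Of 9 tested IL-4 receptor partners, 4 rose from div12 to div12_48_u and 0 fell, where 27.7% of all genes rose and 13.6% fell (median 0.55, against 0.16 for all genes). From div12_48_u to div12_48_d 5 fell, where 13.4% of all genes did (median -0.40, against -0.08). Jak1, the kinase bound to the IL-4 receptor chain, rose by 0.68 ± 0.10 (adjusted p = 0.00122) and changed by -0.66 ± 0.10 in the second comparison (adjusted p = 0.00311). Stat6, named after its values were seen, changed by 0.55 ± 0.08 (adjusted p = 9.49e-04) and -0.47 ± 0.08 (adjusted p = 0.00398). Without div12_48_u replicate 1 the counts were 2 and 2. The second count was also 2 without div0 replicate 1, div0 replicate 2 or div12_48_d replicate 1, and 3 without div12 replicate 1, div12 replicate 2 or div12_48_d replicate 2.

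Among 13 other B cell transcription factors, 7 rose from div12 to div12_48_u, where 27.7% of all genes rose. From div12_48_u to div12_48_d 6 fell, or 3 without div12_48_u replicate 1 or div12_48_d replicate 1, where 13.4% of all genes fell. With median-ratio scaling 5 rose and 1 fell in the first comparison. Ebf1, a factor of B cell commitment, rose by 0.77 ± 0.13 (adjusted p = 0.00203) and changed by -0.80 ± 0.13 in the second (adjusted p = 0.00385). Irf8 rose by 0.57 ± 0.07 (adjusted p = 6.05e-04) and changed by -0.38 ± 0.07 (adjusted p = 0.00749). Of 9 antigen receptor and coreceptor genes, 6 rose in the first comparison, against the same 27.7%, but 1 rose and 1 fell with median-ratio scaling. In the second 1 of the 9 fell, near the 13.4% of all genes. That gene was Cd22, an inhibitory coreceptor, with 0.56 ± 0.12 (adjusted p = 0.00606) and -0.90 ± 0.12 (adjusted p = 0.00198). Without naive replicate 1 or 2 the second count was 2, and without div12_48_d replicate 2 it was 3.

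Of 5 genes of CD23 cleavage and Notch signalling, 3 rose from div12 to div12_48_u, where 27.7% of all genes rose, or 1 without div12_48_u replicate 1. Adam10, the protease that sheds CD23, rose by 0.62 ± 0.09 (adjusted p = 0.00145), in a comparison in which Fcer2a fell. From div12 to div12_48_d, where Fcer2a also fell and 11.9% of all genes rose, 2 of the 5 genes rose. Adam10 changed by 0.38 ± 0.09 there (adjusted p = 0.0275). In div12_48_d against div12_48_u, where Fcer2a fell too, Adam10 changed by -0.23 ± 0.09 (adjusted p = 0.103). A link between Adam10 and Fcer2a RNA was not tested. Notch2 was lower in div12_48_d than in div12_48_u (-0.81 ± 0.16, adjusted p = 0.00944), a call lost without div12_48_u replicate 1 (adjusted p = 0.0657) or div12_48_d replicate 1 (adjusted p = 0.0802).

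Closer relatives of the 6 were mixed. From div12 to div12_48_d 11.9% of all genes rose in the fit of all libraries. There 4 of 7 Fc receptor relatives rose, as did 2 of 5 small MAF partners and relatives of BACH2. In the same comparison 0 of 6 SATB relatives and partners and 0 of 8 other ETS family genes rose. From div12 to div12_48_u, where 27.7% of all genes rose, 3 of 7 Fc receptor relatives rose (1 without div12 replicate 1), 2 of 5 small MAF partners and relatives of BACH2, and 1 of 6 SATB relatives and partners (4 without div12 replicate 1). Of 8 other ETS family genes 3 rose, a count that was 1 with median-ratio scaling or when div12 replicate 2 or 1 of the div12_48_u libraries was left out, and 5 without either naive library.

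Of 9 naive follicular B cell genes, 4 rose from div12 to div12_48_d, where 11.9% of all genes rose. From div12 to div12_48_u 5 of the 9 rose (and 1 fell with median-ratio scaling), where 27.7% of all genes rose. Of 8 activation markers, 4 fell in that comparison, or 2 without div12 replicate 1 or either div12_48_u library, where 13.6% of all genes fell. Cd44, an adhesion receptor of activated lymphocytes, changed by -0.95 ± 0.15 (adjusted p = 0.00157), and it was higher by 1.34 ± 0.15 in div12_48_d than in div12_48_u (adjusted p = 9.98e-04).

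Libraries of div12_48_d, where the 6 genes were lower than in div12_48_u, also held more RNA of some differentiated B cell genes than div12_48_u did. Of 6 tested marginal zone and B1 genes, 4 were higher in div12_48_d than in div12_48_u and 1 lower (0 without div12_48_u replicate 2 or div12_48_d replicate 1), where 12.2% of all genes were higher and 13.4% lower. Cd9 was higher by 1.83 ± 0.14 (adjusted p = 4.77e-04). Of 6 plasma cell genes 3 were higher, Jchain, the joining chain of secreted IgM, by 3.88 ± 0.43 (adjusted p = 0.00104). The 6 plasma cell genes summed to 972 and 1193 TPM in div12_48_d and to 457.5 and 480 in div12_48_u. Naive libraries, where 4 of the 6 genes described here had their highest mean, held 2041 and 874 TPM of the plasma cell genes. The part of marginal zone, B1 and plasma cell genes in the difference of the 6 genes from div12_48_u was not tested.

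Across the 10 libraries the 6 genes fell into patterns that differed in how Phase II was placed. On the log2 scale Il4ra, Bach2 and Ets1 correlated with r = 0.95 to 0.98, Fcmr with Satb1 at 0.80 and Fcmr with Fcer2a at -0.39, as descriptions over 10 libraries in 5 groups of 2. Among 3406 genes searched, the most similar to Fcmr were Adam10 (r = 0.97), Stx4a (0.97) and Hspa4l (0.97), and to Fcer2a Bfsp2 (0.96), Traf4 (0.95) and Rras2 (0.95). Il4ra was closest to Dennd3 (0.99), B4galnt1 (0.98) and Bcl6 (0.98), and Satb1 to Plcl2 (0.99), Ddrgk1 (0.99) and Lamp1 (0.99). Sptbn1 and Ebf1 were among the genes closest to Bach2, and Rhbdf2, Psd4 and Cyth1 were closest to Ets1, all at 0.99. The level of Bfsp2, a filament protein gene, was 154 ± 15.5 TPM in naive cells, 218 ± 19.2 in div0 and 192 ± 24.0 in div12, then 143 ± 6.07 for div12_48_u and 76.2 ± 11.6 for div12_48_d (SD, n = 2), the order of Fcer2a.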

How the data were processed

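Per the labels, 100 ng of RNA per library was depleted of ribosomal RNA and read on a NextSeq 500 (single-end, 50 bp), for 10 libraries of mouse splenic B cells. The deposited table holds TPM by transcript as the authors computed it. The submitters' processing notes name the build mm10 and the tools Salmon, HISAT2, HTSeq, featureCounts and DESeq2; which tool did what, and its version, is not given in the sources used here. Of 13128 transcripts with values, 63 without a symbol were left out and 13065 were summed into 6610 genes.

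The 4427 genes that reached 1 TPM in 2 or more libraries were fitted in R 4.3.3 with limma 3.58.1, taking log2(TPM + 1) as the response and group as the only term over all 10 libraries, with a trended prior and p-values adjusted by Benjamini-Hochberg. TPM keeps no counts, so no count model was fitted and no counting interval is given. Naive replicates differed most (340 genes over 2-fold apart, against 33 to 65 in other groups). Python 3.11.15 served for tables (numpy 2.4.6, pandas 2.3.3) and figures (matplotlib 3.10.9).

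The 6 genes and the 16 lists of related genes and cell markers were chosen with earlier results of these data known. Named list genes are among the 3 most abundant of their list, and genes of similar pattern are the 3 with the highest correlation among named genes of at least 10 TPM, of which 1 is not reported here. Outside this rule, Stat6, Prdm1, Mki67, Ebf1, Cd22, Cd3e and C1qa were named after their values were seen. Alternatives changed 1 choice at a time: pseudocount, filter, scaling, the groups fitted, the replicate number as a block, the trend, the most abundant transcript, and each library left out. A library alone in its group was then assumed to vary like the other groups. Several listed genes, such as Ms4a1 and Cr2, were not among the 6610 gene symbols and so were not analysed here. Shares of all genes refer to the 4427 tested.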

Additional observations from a re-analysis of the deposited data

How the results depend on the processing

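Of 1356 values of the 6 genes under the alternatives, 1278 kept their direction and side of the threshold, 45 lost a call, 14 gained one and 19 changed sign. For 12 other genes named in the list comparisons, 397 of 399 values kept both and 0 changed sign. In div12 against div0 the count of genes called was 0 without div0 replicate 1, without div0 replicate 2 or without div12 replicate 2, and leaving out each library in turn gave 0 to 5. In div12_48_u against div0, a comparison added after seeing the data with div12_48_d against div0, 4 genes were called, 2 without div0 replicate 1 or div12_48_u replicate 2, 1 without div0 replicate 2, and 1 to 4 with each library left out. Sign changes touched values that missed the threshold in the fit of all libraries. Fcer2a in div12 against naive was -0.16 with quantile normalization. Satb1 in div12_48_u against naive was 0.016 with median-ratio scaling, 0.071 with the most abundant transcript, and from -0.34 to 0.034 with a library left out. Fcmr in div12_48_d against naive was 0.14 with median-ratio scaling and from -0.35 to 0.12 with a library left out. Ets1 in div12_48_d against div12 ran from -0.20 to 0.12 with a library left out, and in div12_48_u against div0 from -0.14 to 0.0465. Satb1 in div12_48_d against div0 was 0.044 with the most abundant transcript and from -0.68 to 0.034 with a library left out. In the difference of the division contrasts, Ets1 was -0.027 with median-ratio scaling, -0.013 with the most abundant transcript and -0.15 to 0.17 with a library left out, and Il4ra was -0.034 to 0.11 with a library left out.

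Labels give the groups the same replicate numbers, but deviations of same-numbered libraries correlated at -0.24 to 0.20 over 10 pairs of groups, so the numbers were not taken to pair the samples. With the replicate block 6 genes were called in div0 against naive in place of 5 (Fcer2a, 0.33, adjusted p = 0.0375), and the block changed no other call of the 6. Depth is unknown, 2 libraries a group leave 5 residual degrees of freedom, and the cause of calls lost or gained was not tested.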
